A study of Homo sapiens with 16 samples.

Results

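The mitochondrial ribosomal RNAs are MT-RNR1, the 12S rRNA of the small subunit of the mitochondrial ribosome, and MT-RNR2, the 16S rRNA of its large subunit. Their members here are the positions of the mitochondrial chromosome whose gene symbol in the deposited tables is MT-RNR1 or MT-RNR2, of any base. Of 719918 positions listed in at least 1 table of the series, 2466 lay in these rRNAs, 940 in MT-RNR1 and 1526 in MT-RNR2. In the hg38 annotation MT-RNR1 (ENSG00000211459.2) is a single exon of 954 bases at chrM:648-1601 and MT-RNR2 (ENSG00000210082.2) a single exon of 1559 bases at chrM:1671-3229, both on the + strand. The listed positions therefore cover 98.5% of the bases of MT-RNR1 and 97.9% of those of MT-RNR2, and 203 and 340 of them are uridines. Bases are numbered below from 1 at the annotated start of each rRNA.

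Reverse-transcription stops were measured in poly(A)-selected, fragmented RNA of human cell lines grown in the same medium. The 16 libraries formed 8 groups of 2 replicates. HEK293T cells, an embryonic kidney line labelled wild type, were sequenced without CMC (CMC-), with 0.2 M CMC (CMC+), and with 0.2 M CMC and Terminator exonuclease. HCT116 cells, a colorectal carcinoma line, were sequenced with the same 3 treatments, and HCT116-shDKC1 cells, which carry 1 short hairpin against DKC1, without CMC and with CMC and Terminator. CMC is a carbodiimide that leaves a bulky adduct on pseudouridine, at which reverse transcriptase stops, and Terminator digests RNA that carries a 5′ monophosphate. The labels do not say whether replicates are separate cultures, so p-values measure the spread between these samples, which may be technical.

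Each of the 10 tables sets 1 treated library beside 1 CMC- library, position by position, with the reads that stop at a position and the reads that cover it. The stop percent is the share of covering reads that stop. Library totals behind the deposited RPM ran from 8653041 to 31261783. The 2466 positions were not all listed in every table: a table held 1206 to 1632 of them, and 55 positions of MT-RNR1 and 75 of MT-RNR2 stood in all 10. The values show that a position is listed only with at least 5 treated and 1 control stop reads and a treated stop ratio at or above that of its control. The sign of treated against its own control is thus set by the listing, and an unlisted position is not a position without stops. Separation of treated from control libraries is therefore common. Both Terminator libraries lay above both CMC- libraries at 84.1% of the mitochondrial rRNA positions listed in both replicates of HEK293T and 81.7% in HCT116. With CMC alone the shares were 50.2% and 55.4%. Of 8 epithelial and colorectal markers for HCT116, 5 were listed in each HCT116 and HCT116-shDKC1 table and 1 to 2 in the HEK293T tables. EPCAM, KRT8, KRT18 and KRT19 were among the 5 in each. CDX2 went the other way. It was listed in every HEK293T table but that of CMC+ replicate 1, in that of HCT116-shDKC1 replicate 2, and in no HCT116 table. VIL1 and LGALS4 were not listed. Of 6 markers for HEK293T, 3 to 5 were listed in HEK293T tables and 0 to 1 in the others.

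The mitochondrial genome encodes its own rRNAs, which are transcribed from the heavy-strand promoter and cut out of a polycistronic precursor between tRNAs. Unlike nuclear rRNA, which carries many pseudouridines placed by guide RNAs with dyskerin, the DKC1 product, mitochondrial rRNA carries few modified bases, each made by a dedicated protein enzyme. The known pseudouridine of 16S rRNA is made by RPUSD4. The other known bases are methylations: in 12S rRNA by TRMT2B, METTL15, NSUN4 and TFB1M, and in 16S rRNA by TRMT61B, MRM1, MRM2 and MRM3. These rRNAs are not messenger RNA and end in at most a short tail, so their reads in a poly(A) selection are those that the selection let through.

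The sequences around the positions that the results turn on are given 5′ to 3′ as the deposited tables hold them, in hg38, and every listed base matched the annotated transcript. Capitals mark the positions named. The first line holds the RPUSD4 pseudouridine and its 5′ neighbour. The next lines hold runs and single uridines called after CMC and Terminator that are described below, then the known methylated adenosine of 16S rRNA, and last a strong stop of untreated HEK293T RNA.
MT-RNR2 C1396 and U1397, chrM:3053-3081: agtcctacgtgatCTgagttcagaccgga
MT-RNR2 U425 to G428, chrM:2083-2111: taaatttaactgTTAGtccaaagaggaac
MT-RNR2 C1013 and C1014, chrM:2670-2698: ccagtgaaattgaCCtgcccgtgaagagg
MT-RNR1 C223 to G225, chrM:857-885: gctatactaacccCAGggttggtcaattt
MT-RNR1 C484 and U485, chrM:1118-1146: atcaacaaaactgCTcgccagaacactac
MT-RNR1 U560, chrM:1193-1221: tctagaggagcctgTtctgtaatcgataa
MT-RNR2 U385, chrM:2041-2069: ttcaactttaaattTgcccacagaaccct
MT-RNR2 U816, chrM:2472-2500: aactcggcaaatctTaccccgcctgttta
MT-RNR2 A947, chrM:2603-2631: cacttgttccttaaAtagggacctgtatg
MT-RNR2 U137, chrM:1793-1821: gaaagatgaaaaatTataaccaagcataa

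With CMC alone, the called stops of the mitochondrial rRNAs lay at a single place, the CU dinucleotide at bases 1396 and 1397 of MT-RNR2. U1397 (chrM:3067) is the pseudouridine that RPUSD4 makes, and C1396 (chrM:3066) is the base on its 5′ side. In HEK293T, 4.52% to 5.64% of covering reads stopped at U1397 with CMC alone, against 2.17% to 2.39% without. In HCT116 the corresponding shares were 2.99% to 3.21% and 0.713% to 1.01%.

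At U1397 the stop percent in HEK293T was 2.17 and 2.39 in CMC- replicates 1 and 2, 5.64 and 4.52 in CMC+, and 9.35 and 8.31 in CMC+ with Terminator. The 3 groups did not overlap, and every Terminator library lay above every CMC+ library. With CMC alone the stop reads per covering read were higher than in CMC- by 1.11 ± 0.12 (log2, SE; n = 2 a group), with an edgeR adjusted p of 0.00637. The SE of stop changes, here and below, come from the F statistic and can be smaller than counting error. C1396 stopped 1.30% and 1.73% of reads in CMC-, 4.29% and 3.87% in CMC+ and 8.12% and 8.88% with Terminator. These groups did not overlap either, and the change with CMC alone was 1.39 ± 0.15 (log2, SE; edgeR adjusted p = 0.00573). The exact 95% interval of a single library, which covers counting error only, reached from 1.46% to 3.11% at U1397 in CMC- replicate 1 and from 4.27% to 7.27% in CMC+ replicate 1.

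A position was called where the edgeR adjusted p was under 0.05, over all positions of the series tested together, and the fold at least 2. Of the 415 mitochondrial rRNA positions tested in HEK293T, 153 of them uridines, C1396 and U1397 were the 2 called higher with CMC alone, 0.482% beside 1.41% of all 14824 positions tested. None was called lower, where 0.00675% of all positions were. Over the 415 positions the median log2 change was 0.20, and over all positions 0.29. With TMM-scaled library totals in place of covering reads neither position passed, at log2 1.12 for C1396 and 0.92 for U1397, and the median of all positions moved to 0.02. Without CMC- replicate 1 only C1396 passed, and U1397 stood at 0.94.

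In HCT116 the tables without Terminator gave C1396 stop percents of 1.42 and 0.979 in CMC- and 4.41 and 3.92 in CMC+. U1397 gave 0.713 and 1.01 in CMC- and 3.21 and 2.99 in CMC+. At both bases the 2 CMC+ libraries lay above the 2 CMC- libraries. This comparison was fitted on stop reads with their sums as library sizes, so its log2 values are changes of stop reads: 1.40 ± 0.09 at C1396 (SE; edgeR adjusted p = 0.00438) and 1.54 ± 0.14 at U1397 (SE; edgeR adjusted p = 0.0120). These were the 2 positions called of 846 tested, 240 of them uridines, beside 0.155% called higher of all 20660. None of the 846 was called lower, where 0.0871% of all positions were. The median change was -0.04 over the 846 and -0.06 over all. With covering reads as the offset, a fit added after the data had been seen, the 2 bases kept their calls at 1.80 (adjusted p = 0.000979) and 1.78 (adjusted p = 0.00342). Leaving out CMC+ replicate 1, or CMC+ replicate 2, ended both calls.

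Among the 203 positions tested in both cell lines, the 2 called in HEK293T and the 2 called in HCT116 were the same 2. The overlap of calls over all positions of the series was not counted. Tested positions near them did not pass. U1392 (chrM:3062) stopped 0.0578% and 0.397% of reads in CMC- HCT116 and 0.551% and 0.498% in CMC+, and in HEK293T 0.730% and 0.738% in CMC- against 1.29% and 1.19% in CMC+. U1395 (chrM:3065), on the 5′ side of C1396, gave 3.79% and 4.20% in CMC- HEK293T and 4.69% and 4.38% in CMC+.

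**Figure D1:**
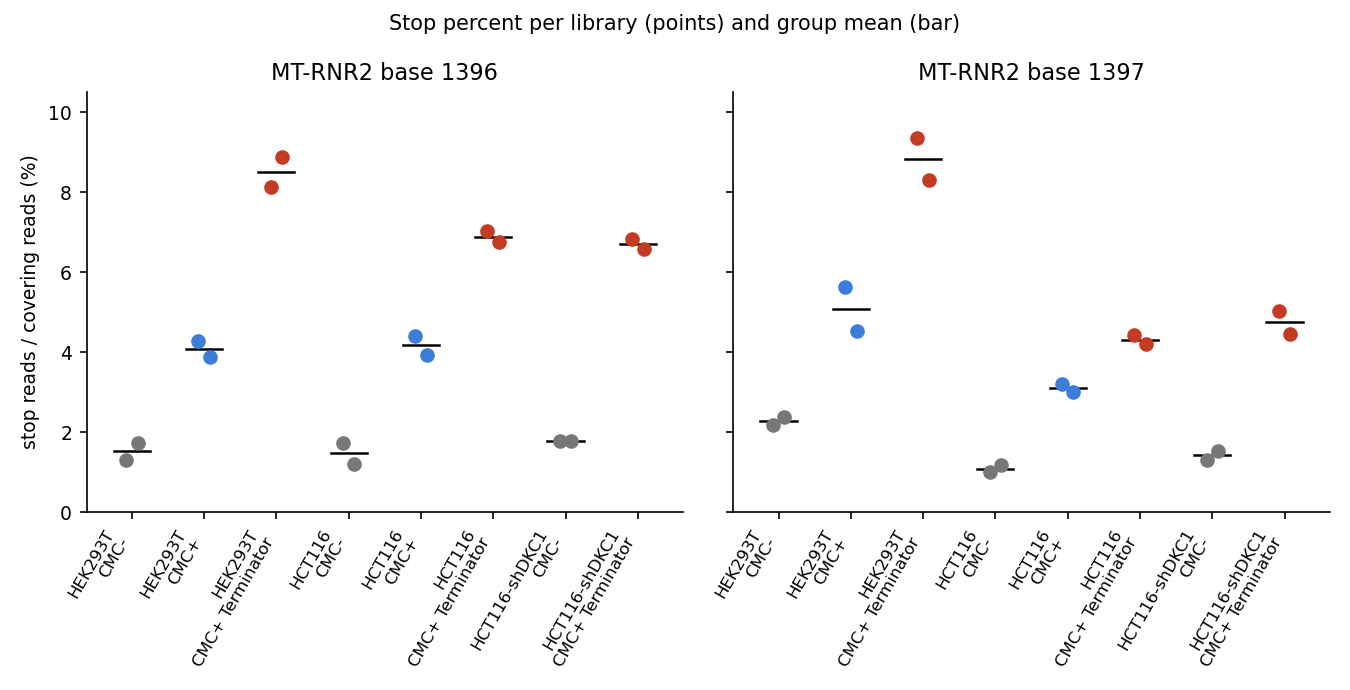
Stop percent (share of covering reads that stop, linear axis from 0) at MT-RNR2 bases 1396 and 1397 in each library of the 8 groups; points are libraries and bars group means, n = 2. The CMC- libraries drawn lie between 0.994 and 2.39 and the treated libraries between 2.99 and 9.35, and in HEK293T the Terminator libraries are above the CMC+ libraries. The HCT116 CMC- points are whole counts from the Terminator tables. The HCT116 CMC+ points are fractional counts from other tables, whose own controls are not drawn.

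Terminator treatment after CMC raised the stops at both bases further in HEK293T, and only C1396 passed as a call. C1396 was higher with Terminator than with CMC alone by 1.08 ± 0.11 (log2, SE; edgeR adjusted p = 0.00761). Of 10 alternatives 5 kept this call, and the change ran from 0.03 to 1.22 among them all. U1397 was higher by 0.82 ± 0.09 (adjusted p = 0.01003), below the 2-fold minimum. Against CMC- the HEK293T Terminator libraries were higher by 2.46 ± 0.13 at C1396 (adjusted p = 7.15e-05) and 1.94 ± 0.11 at U1397 (adjusted p = 9.32e-05). With TMM-scaled totals the values were 1.15 and 0.77.

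In HCT116 with Terminator C1396 stopped 7.02% and 6.75% of reads against 1.73% and 1.21% in CMC-, a log2 change of 2.25 ± 0.14 (edgeR adjusted p = 1.57e-08). U1397 stopped 4.42% and 4.20% against 0.994% and 1.19%, a change of 1.96 ± 0.17 (adjusted p = 2.98e-07). U1395 stopped 7.57% and 7.92% against 3.92% and 3.71%, and was called as well at 1.03 ± 0.13 (adjusted p = 2.07e-05), though its sign turned to -0.11 with TMM-scaled totals. U1397 was above C1396 in both CMC+ HEK293T libraries and in Terminator replicate 1, and below it in Terminator replicate 2. C1396 was above U1397 in every treated HCT116 library. HEK293T and HCT116 were not fitted together, so this order was not compared by a test.

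Beyond this dinucleotide, higher stops with CMC and Terminator were called at a minority of the mitochondrial rRNA positions. In both lines this share was below that of all positions tested. The change against CMC- was positive at 414 of 415 tested positions in HEK293T and at 814 of 814 in HCT116, a direction that the listing favours. In HEK293T 25 of 415 were called higher against CMC-, 6.02% beside 12.3% of all 14824 positions tested. The count was 9 without Terminator replicate 2, 14 without CMC- replicate 2, 9 with DESeq2 and 7 on library totals. In HCT116 52 of 814 were called, 6.39% beside 24.9% of all 26153, and 10 on library totals. None was called lower in either line, and none of all positions was. With TMM-scaled totals the median change over the 415 and 814 tested positions was -0.62 and -0.59: 1 position was then called higher and 25 lower in HEK293T, and 2 higher and 37 lower in HCT116, while the median of all positions moved from 0.53 to 0.03 and from 0.64 to -0.03. The changes below are relative to covering reads at the same position.

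The calls lay in both rRNAs, in HEK293T 10 in MT-RNR1 and 15 in MT-RNR2, and in HCT116 19 and 33. With MT-RNR1 cut into 3 equal parts, 0 of 52 tested positions of the 5′ part, 3 of 56 of the middle and 7 of 57 of the 3′ part were called in HEK293T. HCT116 did not have this order, with 8 of 104, 5 of 113 and 6 of 94. Uridines made up 15 of the 25 and 21 of the 52. As shares, 9.80% of the tested uridines and 3.82% of the other bases were called in HEK293T, beside 17.8% and 8.76% of all uridines and other bases tested. In HCT116 the shares were 7.45% and 5.83%, beside 27.0% and 23.7%. Mitochondrial mRNA, read from the same genome, had 15.1% of uridines and 12.2% of other bases called in HCT116, mitochondrial tRNA 57.7% and 26.3%, and nuclear rRNA 32.1% and 14.8%. No test was made between these classes. The median change over the mitochondrial rRNA positions was 0.43 beside 0.53 over all in HEK293T, and 0.48 beside 0.64 in HCT116.

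**Figure D2:**
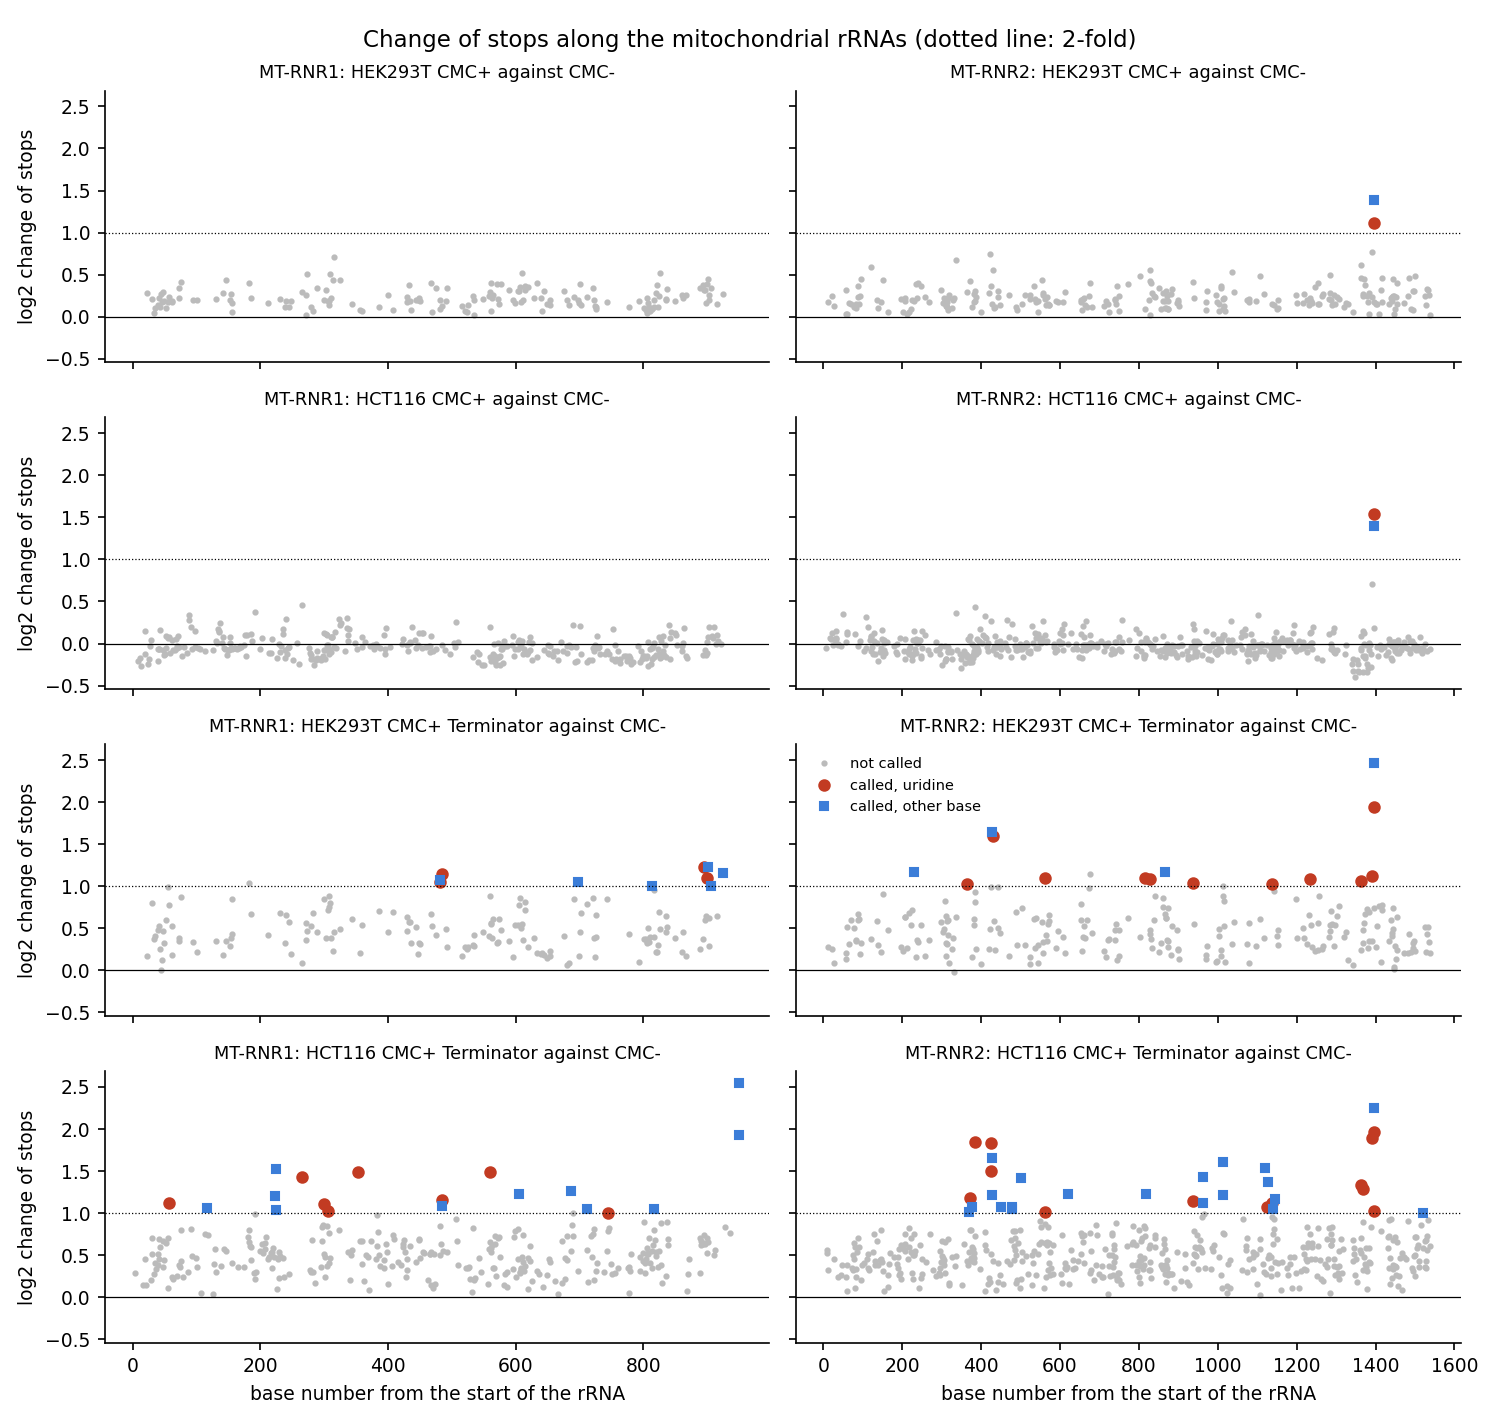
Log2 change of stops (vertical axis) against base number along MT-RNR1 (left) and MT-RNR2 (right), for 4 comparisons; grey points were not called, red circles are called uridines, blue squares other called bases, and the dotted line marks a 2-fold change. The HCT116 CMC+ panels show changes of stop reads and the others changes per covering read; with CMC alone the 2 called points sit at bases 1396 and 1397 of MT-RNR2, and with Terminator the 25 and 52 called points lie in both rRNAs, and none of the HEK293T calls is near the 5′ end of MT-RNR1.

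Of 222 positions tested with Terminator in both lines, 21 were called in HEK293T and 22 in HCT116, and 9 in both, which is 42.9% and 40.9% of each list. No such overlap was counted over all positions of the series, so whether this one is large for these rRNAs was not tested. The 9 were U485 of MT-RNR1 and, in MT-RNR2, A427, U563, U937, U1138, U1364, U1392, C1396 and U1397. U485 (chrM:1132) stopped 2.801% and 2.14% of reads in CMC- HEK293T, 2.91% and 2.34% with CMC alone and 5.67% and 5.17% with Terminator. In HCT116 it stopped 3.09% and 3.34% in CMC- and 7.53% and 6.99% with Terminator. The Terminator libraries stood clear of the CMC- libraries in both lines. CMC alone overlapped with CMC- in HEK293T, and in the HCT116 tables without Terminator gave 2.37% and 2.39% against 2.03% and 2.22%. The change with Terminator against CMC- was 1.15 ± 0.11 (log2, SE; edgeR adjusted p = 0.0036) in HEK293T and 1.16 ± 0.12 (adjusted p = 2.11e-06) in HCT116. Against CMC alone, U485 of HEK293T was higher by 1.03 ± 0.11 (adjusted p = 0.0341).

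The stretch UUAG at bases 425 to 428 of MT-RNR2 was called at all 4 bases in HCT116 with Terminator. U426 (chrM:2096) stopped 1.38% and 1.15% of reads in CMC- and 5.38% and 3.76% with Terminator, a change of 1.83 ± 0.18 (log2, SE; edgeR adjusted p = 1.23e-06). A427 (chrM:2097) went from 1.83% and 1.59% to 5.26% and 5.44%, 1.66 ± 0.17 (adjusted p = 2.06e-06). In HEK293T A427 stopped 2.61% and 2.70% of reads in CMC-, 3.43% and 2.70% with CMC alone and 7.81% and 9.05% with Terminator, so Terminator set it apart from both other groups. It was the largest change there after C1396 and U1397 at 1.65 ± 0.14 (adjusted p = 0.000613), and it was 1.501 ± 0.14 against CMC alone (adjusted p = 0.00686). A427 is an adenosine, and the uridine 2 bases on, U429 of MT-RNR2, was called beside it in HEK293T at 1.59 ± 0.21 (adjusted p = 0.00375). These bases share their 31-base context with nuclear copies of MT-RNR2: in HCT116 Terminator replicate 1, MTRNR2L8 and MTRNR2L12 each listed 25 stop reads at the copy of A427 beside 48 at MT-RNR2. How reads with several matches were counted is not stated, so values at U425 to A427, A792, U816, C1013 and C1014 of MT-RNR2, which have such copies, are uncertain. No copy of the contexts of C1396, U1397, U485, U560 or U385 was listed.

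Other uridines called in both lines also had Terminator libraries above their CMC- libraries, which the listing favours. U1138 of MT-RNR2 (chrM:2808) stopped 4.47% and 4.26% of reads in CMC- HEK293T, 5.56% and 4.29% with CMC alone and 10.4% and 7.66% with Terminator. In HCT116 it stopped 3.40% and 3.22% in CMC- and 7.35% and 7.09% with Terminator. Its change against CMC- was 1.03 ± 0.10 in HEK293T (log2, SE; edgeR adjusted p = 0.00105) and 1.13 ± 0.12 in HCT116. U1364 (chrM:3034) stopped 1.82% and 1.31% in CMC- HEK293T, 2.37% and 2.38% with CMC alone and 3.41% and 3.13% with Terminator, and in HCT116 1.21% and 1.52% in CMC- and 3.03% and 3.85% with Terminator. The HEK293T changes of U1138 and U1364 turned negative with TMM-scaled totals (-0.14 and -0.17). The 25 changes called in HEK293T ran from 1.00 to 2.46 and the 52 of HCT116 from 1.00 to 2.54.

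Single uridines of HCT116 with large changes were U560 of MT-RNR1 and U385 of MT-RNR2. U560 (chrM:1207) stopped 1.71% and 1.98% of reads in CMC- and 5.81% and 4.78% with Terminator, 1.49 ± 0.14 (log2, SE; edgeR adjusted p = 1.17e-06). In HEK293T the same base gave 2.71% and 2.52% in CMC-, 3.43% and 2.99% in CMC+ and 5.31% and 4.54% with Terminator, 3 groups that did not overlap. U385 (chrM:2055) stopped 1.33% and 1.08% in CMC- HCT116 and 3.65% and 4.81% with Terminator, 1.85 ± 0.19 (adjusted p = 2.43e-06). With CMC alone U385 of HCT116 gave 2.22% and 1.67% against 1.31% and 1.03%, and it was not called. In HEK293T it gave 3.43% and 3.74% in CMC-, 4.90% and 4.05% in CMC+ and 6.64% and 5.95% with Terminator. U560 is followed by U and U385 by G.

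In HCT116 18 of the 31 called bases other than uridine and 8 of the 21 called uridines lay next to a called position. In HEK293T 3 of 10 and 3 of 15 did. Of all tested mitochondrial rRNA positions, 48 of 532 other bases and 25 of 282 uridines lay next to a called position in HCT116. In HEK293T 7 of 262 and 8 of 153 did. Fewer positions were tested in HEK293T, 415 beside 814, so fewer neighbours could be called there. The share over all positions of the series was not counted. C1014 (chrM:2684), the second base of a called CC pair in MT-RNR2, stopped 2.58% and 2.31% of reads in CMC- and 7.13% and 7.62% with Terminator, 1.61 ± 0.12 (log2, SE; edgeR adjusted p = 7.44e-08). A224 (chrM:871), the middle of a called CAG in MT-RNR1, stopped 2.41% and 2.77% in CMC- and 8.02% and 7.13% with Terminator, 1.52 ± 0.14 (adjusted p = 5.57e-07). In both cases the Terminator libraries lay above the CMC- libraries by over 4 percentage points. A963 (chrM:2633), which ends a called AA pair 16 bases from the methylated A947, stopped 1.81% and 2.02% in CMC- HCT116 and 5.09% and 5.26% with Terminator, 1.43 ± 0.12 (adjusted p = 3.51e-07). In HEK293T the same bases also stopped more reads with Terminator, 5.98% and 5.97% against 3.07% and 2.93% at C1014, and 4.28% and 5.03% against 1.90% and 1.91% at A224. C1014 stood just below the fold minimum at 0.997 ± 0.105 (adjusted p = 0.00141), and A224 was not listed in every HEK293T table and was not tested.

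The 3′ end of MT-RNR1 held the largest fold of HCT116 on few reads. A949 (chrM:1596) stopped 0.498% and 0.484% in CMC- and 1.74% and 2.08% with Terminator. C950 (chrM:1597) stopped 0.525% and 0.308% in CMC- and 2.18% and 2.796% with Terminator, 2.54 ± 0.37 (log2, SE; edgeR adjusted p = 5.69e-05). Single libraries of HCT116 and HCT116-shDKC1 had 2 to 17 stop reads at these 2 bases. Their folds are therefore less precise than those at C1396. Listing required at least 5 treated but only 1 control stop reads, and a treated stop ratio not below its control. At bases with so few reads this favours large folds, and the rank of C950 was not tested apart from it. Without the minimum of 10 stop reads in 2 libraries, 814 positions were again tested in HCT116 and 52 called.

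Some uridines had high stop levels and large absolute gains without passing as calls everywhere. U816 (chrM:2486) of HEK293T stopped 7.88% and 7.66% in CMC-, 8.73% and 8.05% in CMC+ and 15.1% and 17.8% with Terminator, the largest gain in percentage points there. Its change was 1.09 ± 0.10 against CMC- (log2, SE; edgeR adjusted p = 0.00066) and 1.01 ± 0.10 against CMC alone (adjusted p = 0.00788), and the first turned to -0.04 with TMM-scaled totals. In HCT116 U816 went from 6.04% and 5.41% to 10.2% and 10.0%. With CMC alone the largest gain in HEK293T was at U610 of MT-RNR1 (chrM:1257), 6.86% and 6.20% in CMC- and 9.70% and 9.11% in CMC+. The groups did not overlap, but at 0.52 ± 0.11 (adjusted p = 0.136) it was not called.

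Comparing Terminator with CMC alone in HEK293T removes the CMC- libraries, and the listing does not fix the sign. Of the 415 positions 342 were higher and 73 lower with Terminator, and 4 were called higher, 0.964% beside 0.897% of all positions. They were C1396, A427, U816 and U485. None was called lower, where 0.00675% of all positions were. The median change was 0.22 over the 415 positions and 0.22 over all. With TMM-scaled totals 0 were higher and 37 lower, and leaving out CMC+ replicate 2, or Terminator replicate 2, left no call.

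Stop levels differed among the other modified bases of mitochondrial rRNA. No sample was labelled as lacking one of their enzymes, so whether the modifications cause these stops was not tested. For scale, the median stop percent over the 419 mitochondrial rRNA positions listed in all HEK293T tables was 2.72 and 2.44 in CMC- HEK293T. Over 814 positions it was 2.26 and 2.01 in CMC- HCT116. The 1-methyladenosine that TRMT61B makes at A947 of MT-RNR2 (chrM:2617), a modification of the pairing face of the base, stopped 12.2% and 13.8% of reads in CMC- HEK293T. That is among the highest values of untreated HEK293T RNA at these rRNAs. In HCT116 CMC- it stopped 6.47% and 5.15%, and in HCT116-shDKC1 CMC- 6.02% and 6.27%. The HEK293T values lay above all values of the HCT116 lines. With Terminator it stopped 20.7% and 19.4% in HEK293T and 9.62% and 9.60% in HCT116, where the change of 0.74 ± 0.12 (log2, SE; edgeR adjusted p = 0.000206) was below the 2-fold minimum. It was not listed in every HEK293T table and so was not tested there.

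The dimethyladenosines of TFB1M at A936 and A937 of MT-RNR1 also sit on the pairing face, and values are given here for A936 only. In CMC- RNA A936 (chrM:1583) gave 2.54% and 1.66% in HEK293T, below the medians given above. In CMC- HCT116 it gave 2.62% and 2.56%, above the medians of that line. With Terminator it gave 4.42% and 4.39% in HCT116, 0.76 ± 0.17 (log2, SE; edgeR adjusted p = 0.00604). The 5-methyluridine of TRMT2B at U429 of MT-RNR1 (chrM:1076) gave 2.54% and 1.68% in CMC- HEK293T and 2.14% and 2.16% in CMC- HCT116, and the Terminator libraries reached 3.34% and 2.35%, and 3.39% and 2.61%. The ranges of U429 overlapped in HEK293T, and its change in HCT116 was 0.46 ± 0.15 (adjusted p = 0.0306), below the fold minimum. The 4-methylcytidine of METTL15 at C839 (chrM:1486) gave 1.07% and 1.32% in CMC- HEK293T and 1.53% and 1.45% in CMC- HCT116. The 5-methylcytidine of NSUN4 at C841 (chrM:1488), which leaves the pairing face free, gave 2.76% and 2.43% in CMC- HEK293T and 3.02% and 2.69% in CMC+.

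Of the 2′-O-methylated bases of MT-RNR2, 2 were called with Terminator in HCT116, where 24.9% of all positions were. G1145 (chrM:2815), the MRM1 site, was not listed in every HEK293T table and so not tested there. It stopped 1.26% and 1.05% in CMC- HCT116 and 2.61% and 2.56% with Terminator, 1.17 ± 0.16 (log2, SE; edgeR adjusted p = 2.96e-05). U1369 (chrM:3039), the MRM2 site, stopped 2.05% and 1.70% in CMC- HCT116 and 4.02% and 4.96% with Terminator, 1.29 ± 0.17 (adjusted p = 2.52e-05), which turned to -0.07 with TMM-scaled totals. In HEK293T U1369 gave 2.40% and 1.73% in CMC- and 2.70% and 3.005% with Terminator, 0.48 ± 0.16 (adjusted p = 0.194). G1370 (chrM:3040), the MRM3 site next to it, gave 1.74% and 1.55% in CMC- HCT116 and 3.52% and 2.54% with Terminator. The Terminator libraries lay above the CMC- libraries at these 3 bases in HCT116, as they did at 81.7% of the listed mitochondrial rRNA positions.

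Many stops were present without CMC. Counting positions with at least 5% of reads stopped in both CMC- libraries, 71 of 953 positions listed in both HEK293T Terminator tables were such stops, 36 at U, 27 at A, 4 at C and 4 at G. In HCT116 they were 21 of 1199, 8 at U, 8 at A, 3 at C and 2 at G, and in HCT116-shDKC1 20 of 1014. Of these, 17 positions were shared by HEK293T and HCT116, 23.9% of the first list and 81.0% of the second. The 2 lists were drawn from different sets of positions, so a stop not listed in both tables of the other line counted as not shared. Neither the share of such stops nor their overlap was counted over all listed positions of the series. Uridine is 31.3% of the positions listed in both HEK293T Terminator tables and 30.0% of those in both HCT116 Terminator tables. The tables without Terminator, which have fractional counts in both lines, gave 46 such stops of 836 positions in HEK293T (5.50%) and 25 of 852 in HCT116 (2.93%), a smaller gap than the 7.45% and 1.75% of the Terminator tables.

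Strong natural stops lay near the 5′ end of MT-RNR1 and at several places of MT-RNR2, A947 among them. A4 of MT-RNR1 stopped 14.5% and 13.7% of reads in CMC- HEK293T, 10.99% and 10.45% in HCT116 and 10.8% and 10.4% in HCT116-shDKC1, with 15.6% and 15.7% after CMC and Terminator in HEK293T. U9 of MT-RNR1 stopped 14.6% and 12.1% in CMC- HEK293T, and 17.2% and 12.9% in CMC- HCT116 in the tables without Terminator. U137 of MT-RNR2 (chrM:1807) stopped 15.9% and 13.3% in CMC- HEK293T, against 7.03% in the 1 HCT116 CMC- library of the Terminator tables that listed it. A490 of MT-RNR2 gave 11.4% and 9.24% in HEK293T and 5.75% and 5.09% in HCT116. At C1436 of MT-RNR2 the lines overlapped, with 9.21% and 11.4% in HEK293T and 9.43% and 8.89% in HCT116. The order at A792 changed with the tables used. HEK293T gave 4.29% and 4.03%, and HCT116 7.31% and 5.90% in the whole counts of its Terminator tables. In the fractional counts of the tables without Terminator, HCT116 gave 3.90% and 3.58%, below HEK293T.

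**Figure D3:**
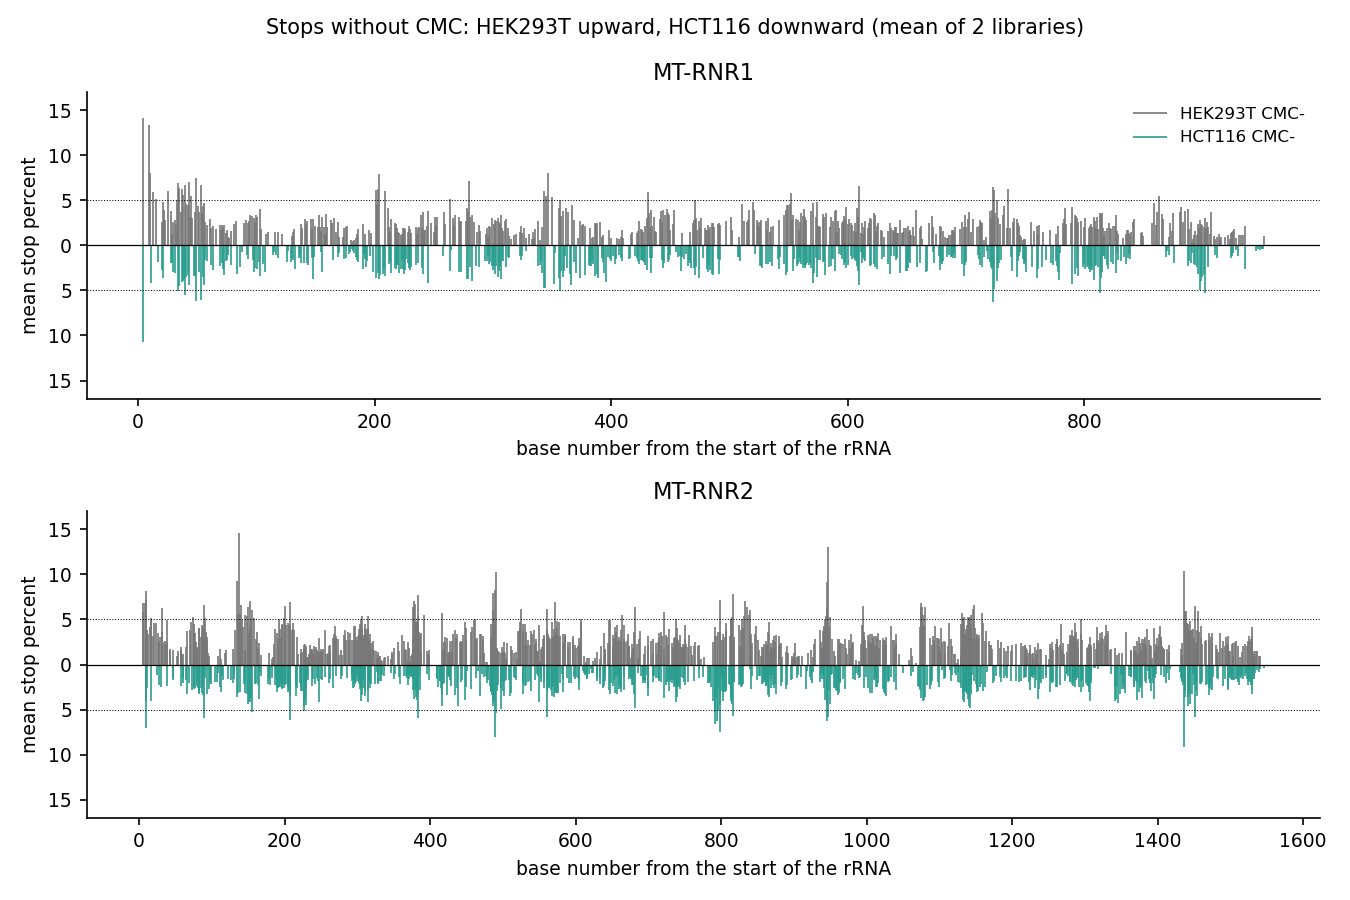
Mean stop percent of the 2 CMC- libraries (vertical axis) against base number along MT-RNR1 and MT-RNR2, with HEK293T drawn upward and HCT116 downward and a dotted line at 5%. Both CMC- libraries passed 5% at 71 of 953 positions in HEK293T (fractional counts) and 21 of 1199 in HCT116 (whole counts), against 46 of 836 and 25 of 852 in the tables without Terminator, and the tall lines near the start of MT-RNR1 stand in both.

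The untreated profiles were alike between the HCT116 lines and less so between HCT116 and HEK293T. Over 311 positions of MT-RNR1 and 503 of MT-RNR2, the mean CMC- stop percent of HCT116 and HCT116-shDKC1 had a Pearson correlation of 0.981 and 0.983. Between HEK293T and HCT116 it was 0.793 over 323 positions and 0.758 over 533. Between replicates it was 0.960 and 0.954 in HEK293T and 0.956 and 0.960 in HCT116. These are descriptions across positions, which share their library, their neighbours' reads and the listing rule. The tables of both lines also differ in how reads were counted: whole in the Terminator tables of HCT116, fractional in those of HEK293T. With the fractional control columns of the HCT116 tables without Terminator, the correlations with HEK293T were 0.930 over 217 positions and 0.862 over 341.

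The DKC1 hairpin left the stops of the mitochondrial rRNAs without a called change. In HCT116-shDKC1 33 of 814 positions were called with CMC and Terminator against CMC-, 4.05% beside 19.7% of all 26153 positions, 10 in MT-RNR1 and 23 in MT-RNR2, and 16 of them uridines. The count was 52, as in HCT116, without HCT116-shDKC1 Terminator replicate 2 or CMC- replicate 2, and 7 on library totals. None was called lower, and none of all positions was. Of the 52 positions called in HCT116, 25 were also called in HCT116-shDKC1, 48.1% of the first list and 75.8% of the second. This overlap was likewise not counted over all positions of the series. TMM-scaled totals gave 3 higher and 11 lower. The difference between the 2 responses, which the listing does not fix, was called at 0 of 814 positions by edgeR and by DESeq2, beside 0.0115% of all positions called lower and 0% higher. At an unadjusted p under 0.05 there were 7 of 814. The lowest difference, picked after its value was seen, was at U353 of MT-RNR1 (chrM:1000), -0.93 ± 0.36 (SE; edgeR adjusted p = 0.999945): it stopped 1.11% and 0.694% in CMC- HCT116 and 2.32% and 2.57% with Terminator, and in HCT116-shDKC1 1.05% and 1.24%, and 2.14% and 1.44%. The median difference was -0.07 over the 814 positions and -0.07 over all.

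DKC1 itself, the targeted gene, was barely covered: 2 to 3 of its positions were listed in an HCT116 Terminator table and 1 to 2 in an HCT116-shDKC1 table. Over the 2 positions shared by HCT116 replicate 2 and HCT116-shDKC1 replicate 1, the mean control coverage was 12.5 and 5.5 reads, and as RPM 0.465 of wild type. At the 1 position shared by the first replicates it was 8 and 5 reads, or 0.577. These reads are too few for a test of the label.

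At U1397 HCT116-shDKC1 stopped 1.31% and 1.54% of reads in CMC- and 5.03% and 4.46% with Terminator, beside 0.994% and 1.19%, and 4.42% and 4.20%, in HCT116. Both pairs of libraries with the hairpin lay above those without, and the difference of the responses was -0.26 ± 0.23 (log2, SE; edgeR adjusted p = 0.999945). At C1396 the HCT116-shDKC1 values were 1.79% and 1.77% in CMC- and 6.82% and 6.58% with Terminator, and the difference was -0.34 ± 0.21. The responses within HCT116-shDKC1 were 1.91 ± 0.14 at C1396 (adjusted p = 7.71e-08) and 1.71 ± 0.15 at U1397 (adjusted p = 6.04e-07). At U560 of MT-RNR1 the knockdown libraries gave 1.83% and 1.73%, and 4.92% and 4.94% with Terminator, a difference of -0.01 ± 0.20. At U385 of MT-RNR2 they gave 1.32% and 1.34%, and 4.12% and 3.19%, a difference of -0.42 ± 0.27. At U1369 they gave 2.79% and 2.05%, and 4.98% and 3.61%, a difference of -0.47 ± 0.23. None of these differences passed, and with standard errors of 0.20 to 0.27 at n = 2 they do not show that the responses are alike. Over all 814 positions the differences ran from -0.93 to 0.58.

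**Figure D4:**
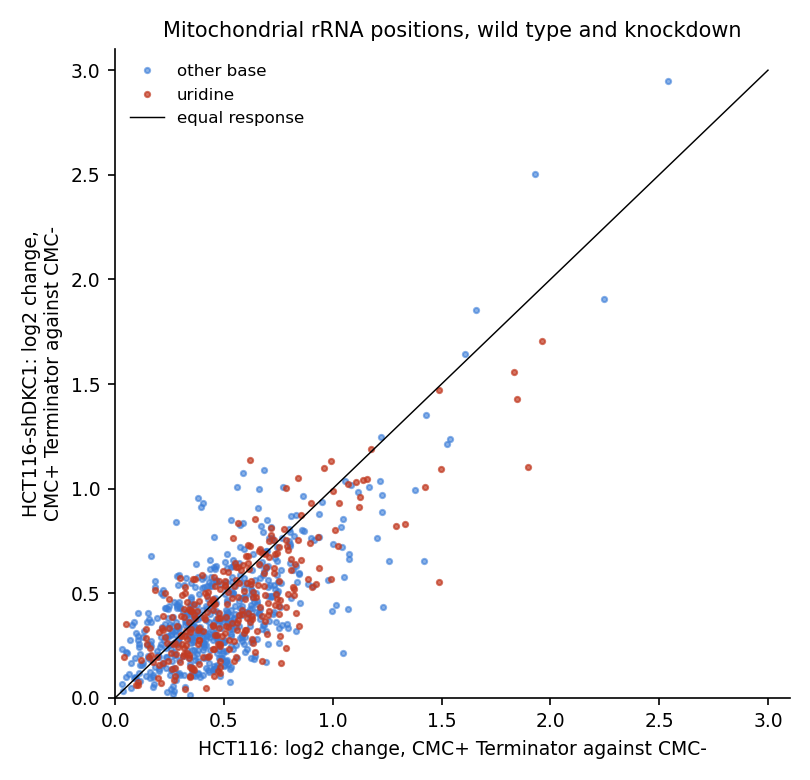
Log2 change of stops with CMC and Terminator against CMC- in HCT116 (horizontal axis) and HCT116-shDKC1 (vertical axis) at the 814 mitochondrial rRNA positions tested in both, with the line of equal change. Points lie on both sides of the line, 539 below it and 275 above, and bases 1396 and 1397 of MT-RNR2 are high in both.

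Coverage of the 2 rRNAs moved together. The share of all covering reads, over the positions that all tables of a fit list, was 2.52% and 2.62% for MT-RNR1 and 4.71% and 4.70% for MT-RNR2 in CMC- HEK293T. With CMC alone it was 2.60% and 2.85%, and 4.94% and 5.23%. With Terminator it was 1.86% and 1.72%, and 3.38% and 3.15%, below every library of the other HEK293T groups. Relative to CMC alone, edgeR gave -0.33 ± 0.05 for MT-RNR1 (log2, SE; adjusted p = 0.000421) and -0.36 ± 0.05 for MT-RNR2 (adjusted p = 0.000197), where 24.8% of all 1334 genes tested were called lower and 25.1% higher. Without TMM scaling, on library totals, the changes were -0.09 (adjusted p = 0.462) and -0.12 (adjusted p = 0.295), so both calls rest on the scaling. Coverage at listed positions is only a proxy for level.

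CMC alone left the coverage without a called change, at -0.04 ± 0.05 (edgeR adjusted p = 0.958) and -0.01 ± 0.05 (adjusted p = 0.978), where 0.075% of genes were called lower and 0% higher. In CMC- HCT116 the shares were 0.987% and 0.999% for MT-RNR1 and 1.71% and 1.67% for MT-RNR2, and with Terminator 0.685% and 0.596%, and 1.15% and 0.997%. The Terminator libraries lay below the CMC- libraries, but the changes of -0.28 ± 0.13 (adjusted p = 0.0706) and -0.30 ± 0.14 (adjusted p = 0.0608) did not pass. Of all 2263 genes tested, 23.2% were called lower and 27.7% higher. On library totals both passed, at -0.54 (adjusted p = 3.67e-05) and -0.57 (adjusted p = 2.43e-05). In CMC- HCT116-shDKC1 the shares were 1.00% and 1.02%, and 1.79% and 1.75%. Against HCT116 the changes were -0.08 ± 0.25 and -0.03 ± 0.27 (adjusted p = 0.991 for both), beside 0.0884% of genes called lower and 0.0442% higher. For that comparison between cell populations, bulk RNA cannot tell fewer cells with a transcript from less of it per cell.

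**Figure D5:**
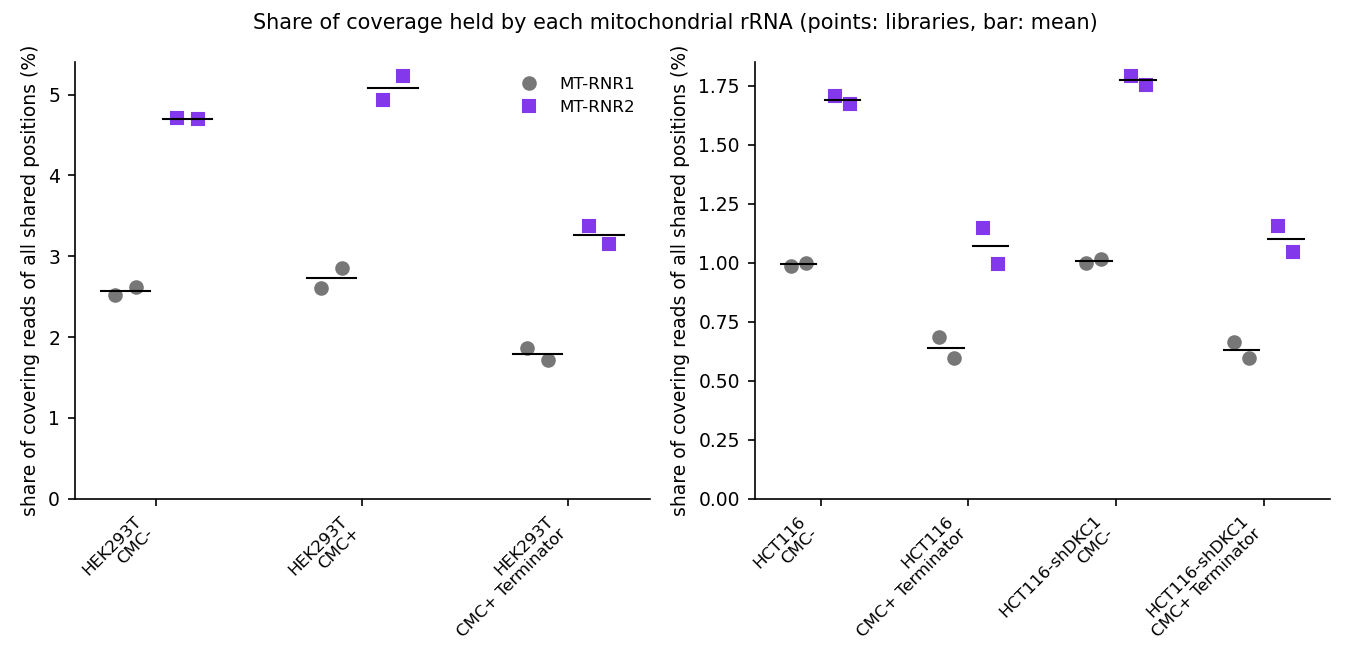
Share of the covering reads of all shared positions, in percent on an axis from 0, taken by MT-RNR1 and by MT-RNR2 in each library (points) with the group mean (bars, n = 2). HEK293T and the HCT116 lines were summed over different sets of positions; within each, the Terminator libraries are the lowest, 1.72 to 1.86 for MT-RNR1 in HEK293T and 0.595 to 0.685 in the HCT116 lines.

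The genes whose coverage moved most like the rRNAs were, over the 6 HEK293T libraries and 325 genes, MT-RNR2 for MT-RNR1 (Pearson 0.997), then RPL5 (0.995) and RPL23 (0.994). For MT-RNR2 they were MT-RNR1 (0.997), RPL23 (0.996) and RPL5 (0.993). Over the 8 libraries of the HCT116 Terminator tables and 390 genes, they were PABPC1 (0.996), MT-RNR2 (0.993) and RPL19 (0.993) for MT-RNR1, and RPL19 (0.998), PABPC1 (0.996) and TPT1 (0.994) for MT-RNR2. The libraries share treatment and depth with every gene, so the values describe these libraries.

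Messages of the enzymes and assembly factors of mitochondrial rRNA were thinly covered. Of 19 such genes 1 to 17 were listed in a table, and 1 position each of 3 genes entered the coverage fits. TRUB2, a mitochondrial pseudouridine synthase of messenger RNA, rose with Terminator in HCT116 by 1.39 ± 0.38 (log2, SE; edgeR adjusted p = 0.00751) and stood at 0.62 in the knockdown against HCT116 (adjusted p = 0.961). GRSF1, an RNA-binding protein of mitochondrial RNA granules, was higher in coverage with Terminator than with CMC alone in HEK293T by 1.14 ± 0.24 (adjusted p = 0.00234). There 25.1% of all genes were called higher. NGRN, which is needed for 16S rRNA, stood at -0.24 with Terminator in HCT116 (adjusted p = 0.671) and 0.03 in the knockdown against HCT116 (adjusted p = 0.991). RPUSD4, which makes the pseudouridine at U1397, entered no coverage fit.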

How the data were processed

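Positions came from the authors' 10 tables. Per the submitters' processing notes, cutadapt 2.8 trimmed the reads and STAR, of unstated version, mapped them to hg38. Further steps are not given in the sources used here. The deposited stop and covering reads are whole counts in the Terminator tables of both HCT116 lines and fractional, expected counts in the others, which were rounded for edgeR and DESeq2. The deposited RPM values of stop reads served only to recover library totals. Sequence contexts are from the tables, checked against GENCODE 29 transcripts.

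Stop reads were fitted with edgeR 4.0.16 (glmQLFit, glmQLFTest, R 4.3.3) over all positions listed in every table of a fit where 2 or more libraries had at least 10 stop reads. There was 1 fit for HEK293T, 1 for both HCT116 lines with Terminator, and 1 for the HCT116 tables without Terminator. Log covering reads were the offset and replicate number a block within each cell population. P-values were Benjamini-Hochberg adjusted over all tested positions. The SE is the size of the log2 change divided by the square root of its F statistic. For stop reads it can be smaller than the p-value implies. At A46 of MT-RNR1 in HEK293T with CMC alone, 0.17 ± 0.08 had an unadjusted edgeR p of 0.456. The SE of stop changes therefore overstate precision. The last fit used stop-read sums as library sizes, because its controls were thought to lack coverage. They proved to hold it, and fits using it were added. Whether these controls are the CMC- libraries of the Terminator tables is uncertain: stop reads were equal (tolerance 0.0001) at 22.1% and 21.7% of shared positions for the same replicate number, and at 3.50% and 2.92% for the other. Coverage was summed per gene and fitted with TMM. Alternatives used DESeq2 1.42.0 and other offsets, filters and libraries. Pandas 2.3.3, scipy 1.17.1 and matplotlib 3.10.9 ran in Python 3.11.15.

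The block follows the series' design text, in which a replicate is a CMC- and CMC+ pair. Same-numbered libraries of a population had correlated deviations of 0.0619 to 0.578. On simulated counts, a 2-fold change was recovered at 44.8% (HEK293T, CMC alone, 13744 positions) and 46.3% (HCT116, Terminator, 25439 positions). A 3-fold change was recovered at 100% and 97.0%. The 2-fold minimum of a call itself limits recovery of a 2-fold change. The simulation had 1 fixed spread, placed changes only at positions with many stop reads and applied no listing rule. Its shares are therefore not the power of the real fits.

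Positions named are those called (at most 10 per comparison and base class), the strongest stops of CMC- RNA with at least 50 covering reads, known modified bases, and uncalled uridines with the largest differences. Members and lists were chosen with earlier results of these data known.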

Additional observations from a re-analysis of the deposited data

How the results depend on the processing

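At HEK293T with CMC alone, TMM-scaled totals left 0 higher calls. With Terminator against CMC-, HEK293T gave 7 higher calls on library totals, 1 with TMM (and 25 lower), 9 with DESeq2 and 47 from the tables of that comparison alone (920 positions tested). Terminator against CMC alone gave 2 higher calls on library totals, 0 with TMM (and 37 lower) and 0 with DESeq2. HCT116 with Terminator gave 10 on library totals and 2 with TMM (and 37 lower), and HCT116-shDKC1 7 and 3 (and 11 lower). HCT116 with CMC alone gave 1 with DESeq2, which set no adjusted p for U1397. Coverage with Terminator against CMC alone was -0.0897 and -0.12 on library totals, and without the replicate block -0.34 (adjusted p = 0.0597) for MT-RNR1. HCT116 coverage with Terminator passed on library totals (-0.54 and -0.57) and with DESeq2 (-0.33, adjusted p = 0.0124, and -0.35, adjusted p = 0.00926).

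Leaving out 1 library gave 1 to 2 calls for HEK293T CMC alone, 9 to 35 for Terminator (9 without Terminator replicate 2, 14 without CMC- replicate 2), 0 to 8 for Terminator against CMC alone (8 without Terminator replicate 1), 0 to 2 for HCT116 CMC alone, 47 to 53 for HCT116 Terminator and 31 to 52 for HCT116-shDKC1 (52 without Terminator or CMC- replicate 2). The differences of the responses stayed at 0 calls. Coverage of MT-RNR1 and MT-RNR2 ranged from -0.12 to 0.0139 and -0.0779 to 0.0281 with CMC alone, positive without CMC+ replicate 1. Terminator against CMC alone ranged from -0.39 to -0.26 and -0.41 to -0.31, and HCT116 Terminator from -0.29 to -0.26 and -0.34 to -0.29. Knockdown against HCT116 ranged from -0.22 to 0.0859 and -0.16 to 0.11, positive without HCT116 CMC- replicate 2 (0.0859 and 0.11) or HCT116-shDKC1 CMC- replicate 1 (0.05 and 0.08). A group left with 1 library is assumed to vary like the others.

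The replicate block pairs CMC- and treated libraries. Without it the calls were 2, 27 and 4 in HEK293T, 2 with CMC alone and 53 with Terminator in HCT116, 28 in HCT116-shDKC1 and 0 for the difference, and it changed no other count by over 1.5 times. Signs that turned did so with TMM: HEK293T Terminator U900 (-0.0146), C481 (-0.11), U563 (-0.11), U816 (-0.0406), U937 (-0.00509), U1138 (-0.14), U1233 (-0.155) and U1364 (-0.17), HCT116 Terminator U563 (-0.12), U1369 (-0.0737) and U1395 (-0.11), and HCT116-shDKC1 MT-RNR1 U299 (-0.0192) and MT-RNR2 U371 (-0.0207). Of 68 results for single positions, 5 kept their call in every alternative and 13 turned in sign in at least 1. Causes were not tested. The tables of Terminator against CMC alone are those of the whole HEK293T fit, so that alternative adds nothing. With 902 to 1576 covering reads at a median tested position of a HEK293T library, small changes of rare stops were not detectable.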
